A study of Rattus norvegicus with 5 samples.

Results

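The genes described here encode the proteins of synaptic vesicles, the SNARE proteins that fuse membranes, and the Rab GTPases that route vesicles between compartments. A gene was taken when the array's annotation gave its probe set 1 symbol and that symbol named a synaptotagmin (Syt), syntaxin (Stx), syntaxin-binding protein (Stxbp), SNAP, VAMP, synapsin (Syn), SV2 or Rab gene, or was *Syp*, *Nsf*, *Rph3a* or *Synj1*. This gave 71 genes of the 4736 with a probe set of 1 symbol. They were read by 102 of the 8740 probe sets analysed, and each gene was represented by its probe set with the highest mean over the 5 arrays. The other 31 probe sets are described separately. *Rab11fip5* and *Rab3ip*, which encode proteins that work with Rabs, came in through their symbols. The 2 probe sets annotated to both *Rab1a* and *Rab1b* were left out.

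The RNA came from primary cultures of hypothalamus, taken from Wistar rat embryos at day 17 (E17) and kept for 3 days. GFP+ cells had been transfected with a vector in which the *Trh* promoter drives green fluorescent protein, and were sorted for fluorescence 48 h later (2 arrays, RNA pooled from 6 experiments). GFP+/- cells were transfected in the same way and went through the sorter without selection (2 arrays, 3 experiments pooled). NT cells received no vector (1 array, 3 experiments pooled). The labels call the arrays of a population biological replicates, whereas the study's text describes aliquots of one RNA pool, so that p-values measure the spread between arrays. Expression of the vector rests on a minimal *Trh* promoter in transiently transfected cells. The values are MAS 5.0 signals, linear intensities in arbitrary units that are compared here between arrays for one probe set at a time. A log2 difference is the difference between the mean log2 signals of 2 populations.

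At a nerve terminal, synaptic vesicles are filled with transmitter, docked at the plasma membrane and fused with it when calcium enters. Fusion is driven by SNARE proteins: a VAMP on the vesicle pairs with a syntaxin and SNAP-25 on the plasma membrane, synaptotagmins act as calcium sensors, and NSF takes the spent complexes apart. Rab GTPases switch between a GTP-bound form on membranes and a GDP-bound form in the cytosol, and each marks its own step, for example Rab3 on secretory vesicles, Rab1 between endoplasmic reticulum and Golgi, Rab5 on early endosomes and Rab7 on late ones. Many of these Rabs and SNAREs act in every cell, whereas synaptophysin, the synapsins and SV2 proteins are hallmarks of neurons and endocrine cells. In hypothalamic neurons the same machinery also releases peptides such as TRH from dense-core granules.

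The populations differed in their cell type markers and the arrays in measures of their RNA quality. The summed signal of 18 neuronal marker genes outside the group was 48438 to 54472 on the GFP+ arrays, 37284 to 46005 on the GFP+/- arrays and 71215 on the NT array. That of 20 fibroblast and matrix genes was 23617 to 32065, 59540 to 60174 and 29018, so that matrix transcripts were present in every population. The ratio of 3' to 5' signals of *Gapdh*, a measure of RNA length, was 12.7 to 17.6 on the 4 arrays of transfected cells and 5.45 on the NT array. That of beta-actin was 14.4 to 31.4 and 10.9, whereas for hexokinase the NT array (2.41) lay within the range of the others (0.498 to 10.3). Median signals of the 8740 probe sets lay between 102 and 116. The brightest *Trh* probe set read 115 and 141 on the GFP+ arrays, 109 and 106 on the GFP+/- arrays and 96.6 on the NT array, and did not pass the test (log2 difference of GFP+ over GFP+/- cells 0.24, adjusted p = 0.761). A second *Trh* probe set read 89.5 and 40.2 on the GFP+ arrays, 86.8 and 51.02 on the GFP+/- arrays and 122 on the NT array (log2 difference -0.15, adjusted p = 0.935). By RT-PCR, the study reported more transcript of *Trh* and of the neuronal marker *tau* in GFP+ cells, and less of the glial marker *gfap*. A second pass through the sorter found most of the sorted cells to be GFP+. Because the arrays read bulk samples, fewer cells of a type and less RNA per cell cannot be told apart. The part of cell makeup and of RNA quality in the differences below was not tested.

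Of the 71 genes, 34 were read by a probe set among the brightest 41% of all, which had a mean signal above 175. These were 5 of 10 vesicle membrane and coat genes, 3 of 13 synaptotagmins, 5 of 10 SNAREs of the plasma membrane and vesicle, 3 of 5 SNAREs of endosomes and Golgi, none of 3 SNARE regulators, 2 of 6 Rabs of regulated secretion, 8 of 10 Rabs of Golgi and endoplasmic reticulum, 6 of 12 Rabs of endosomes and lysosomes, and both Rab effectors. Dim genes repeated poorly. The GFP+ arrays were over 2-fold apart in 11 of the 37 dimmer genes and in 2 of the 34 brighter ones, and the GFP+/- arrays in 9 and 2. Over all probe sets, 15.5% and 13.2% were that far apart. *Syt1*, the calcium sensor of fast release, read 8.34 and 22.7 on the GFP+ arrays, 25.3 and 7.02 on the GFP+/- arrays and 15.01 on the NT array. *Nsf* read 8.50 and 6.63 on the GFP+ arrays, 5.29 and 5.58 on the GFP+/- arrays and 5.33 on the NT array, and *Rph3a*, a Rab3 effector on vesicles, 18.7 and 16.4 on the GFP+ arrays, 29.7 and 16.2 on the GFP+/- arrays and 22.9 on the NT array. The arrays of the populations overlapped for *Syt1* and *Rph3a*, and these low signals set no order between the populations.

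**Figure D1:**
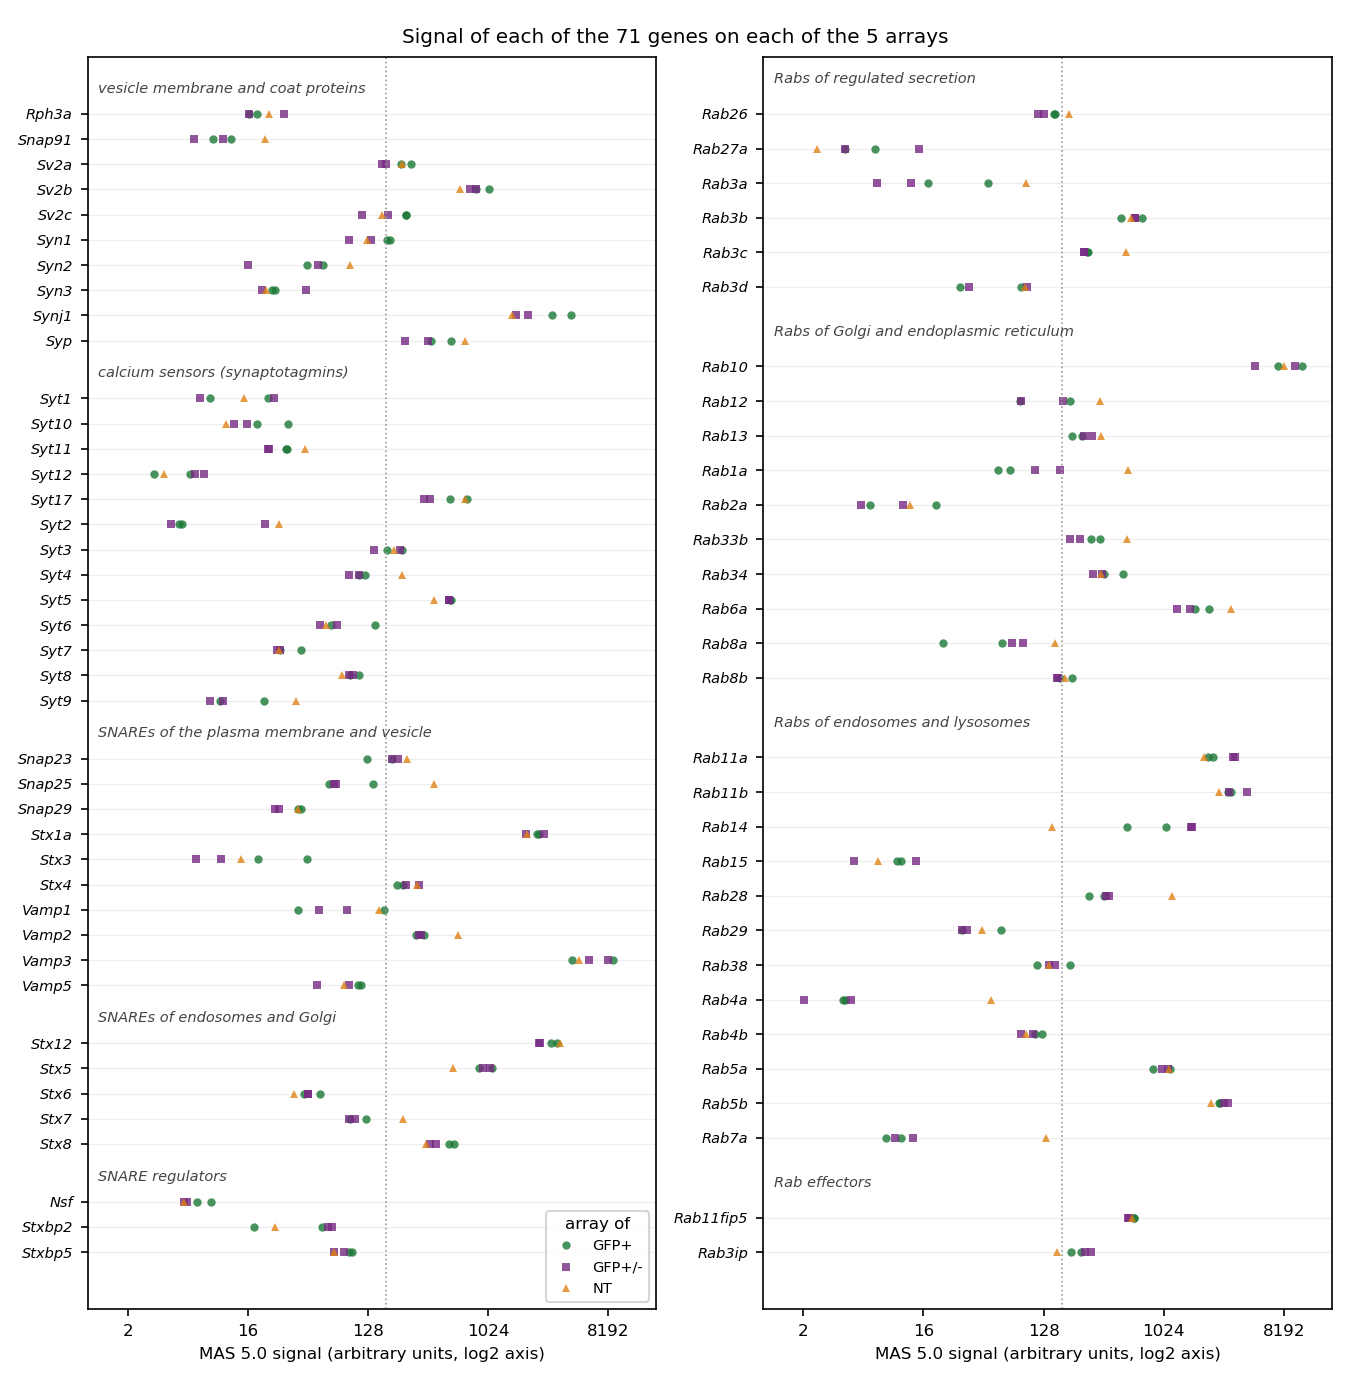
Signal of the 71 genes on each of the 5 arrays, ordered by role, on a log2 axis in arbitrary units. Circles are the 2 GFP+ arrays, squares the 2 GFP+/- arrays and triangles the NT array, and the dotted line marks the mean signal of 175 that bounds the brightest 41% of probe sets. *Rab14* has its NT signal below all others, whereas *Rab1a*, *Rab28*, *Snap25*, *Rab4a* and *Rab7a* have it above.

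Sorted GFP+ cells were first compared with the unsorted GFP+/- cells, the comparison that asks which transcripts go with the sorted cells. Genes of the vesicle membrane and coat leaned to the GFP+ side, led by *Synj1* at 2.01-fold, while *Rab14*, *Rab1a* and *Rab11a* read lower there. None of the 71 genes passed the adjusted threshold in limma, as was the case for 0% of the 8740 probe sets. At an unadjusted p under 0.05, 5 genes were higher (*Synj1*, *Syt17*, *Sv2c*, *Stx3* and *Stx8*) against 9.15% of probe sets, and 3 were lower (*Rab14*, *Rab1a* and *Rab11a*) against 4.75%. The GFP+ arrays lay wholly above the GFP+/- arrays for 26 genes (36.6%, against 30.4% of probe sets) and wholly below for 12 (16.9%, against 15.4%). The median log2 difference of the 71 genes was 0.19, that of all probe sets 0.13. When the arrays were brought to equal medians, these became 0.037 and -0.029, and 37 instead of 48 of the 71 genes were positive. Before that scaling, 5287 of the 8740 probe sets were positive.

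By role, the 10 vesicle membrane and coat genes had a median log2 difference of 0.57, with 8 positive and with 5 genes separated upwards and none downwards. Of all 8740 probe sets, 5287 were positive, 30.4% were separated upwards and 15.4% downwards. For the 10 genes, the values below come from the other scalings. Their median stayed between 0.42 and 0.51 after quantile normalization, with equal medians or with 16 added to each signal. The 13 synaptotagmins had a median of 0.19, and 0.037 with equal medians. The 28 Rab GTPases had a median of 0.058, which turned to -0.099 with equal medians. The 41 genes that are neither Rabs nor Rab effectors had 0.29, with 32 positive, and 0.13 with equal medians.

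*Synj1* encodes synaptojanin, the lipid phosphatase that sheds the clathrin coat from recycling vesicles. It read 4329.6 and 3116 on the GFP+ arrays, 2033 and 1673 on the GFP+/- arrays and 1535 on the NT array. Both GFP+ arrays lay above all others (log2 difference 0.99, SE 0.22, adjusted p = 0.184), and among the brightest probe sets alone the difference passed the threshold (adjusted p = 0.0441), as the only one of the 34 genes there, where 2.23% of probe sets passed upwards and 1.79% downwards. A second, dimmer *Synj1* probe set had the same sign (log2 difference 1.23, adjusted p = 0.383). From these same arrays, the study had already listed *Synj1* among the transcripts detected only in GFP+ cells at its threshold. The reading given here is not independent of that list.

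The hallmark vesicle proteins had smaller differences. *Syp* (synaptophysin, an abundant protein of the vesicle membrane) read 537 and 378 on the GFP+ arrays, 243 and 364 on the GFP+/- arrays and 687 on the NT array (log2 difference 0.60, SE 0.29, adjusted p = 0.429). Its GFP+ arrays lay just above the GFP+/- arrays, and the NT array above both. *Syn1*, whose product synapsin I ties vesicles into clusters, read 189 and 179.6 on the GFP+ arrays, 136 and 91.7 on the GFP+/- arrays and 126 on the NT array (log2 difference 0.72, SE 0.31, adjusted p = 0.372). The SV2 proteins are transporter-like glycoproteins of the vesicle. *Sv2c* read 247 and 246 on the GFP+ arrays, 116 and 180.3 on the GFP+/- arrays and 162 on the NT array (log2 difference 0.77, SE 0.30, adjusted p = 0.341) and *Sv2a* 270.3 and 227 on the GFP+ arrays, 176 and 164 on the GFP+/- arrays and 229.5 on the NT array (log2 difference 0.54, SE 0.23, adjusted p = 0.372). *Sv2b* read 835 and 1048 on the GFP+ arrays, 744 and 836 on the GFP+/- arrays and 633 on the NT array, where GFP+ and GFP+/- arrays just overlapped. For *Syn1*, *Sv2a* and *Sv2c* the GFP+ arrays lay above the GFP+/- arrays, yet none passed the test.

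Among the synaptotagmins, *Syt17* had the clearest separation, with 707 and 529 on the GFP+ arrays, 373 and 339 on the GFP+/- arrays and 686 on the NT array (log2 difference 0.78, SE 0.21, adjusted p = 0.228). GFP+ and NT cells overlapped for this gene and GFP+/- cells lay below both. The probe sets used for core SNAREs of the synapse overlapped between these populations. *Stx1a* (syntaxin 1A, a plasma membrane SNARE of neurons) read 2383 and 2488 on the GFP+ arrays, 1980.0 and 2674 on the GFP+/- arrays and 2003 on the NT array, and *Vamp2* (the main vesicle SNARE of synapses) 339 and 295 on the GFP+ arrays, 319 and 309 on the GFP+/- arrays and 607 on the NT array. *Vamp3*, which serves constitutive fusion from endosomes in most cells, read 4388 and 8875 on the GFP+ arrays, 5826 and 8105 on the GFP+/- arrays and 4902 on the NT array. A second *Stx1a* probe set was separated, with 370.3 and 427 on the GFP+ arrays, 291 and 297 on the GFP+/- arrays and 423.5 on the NT array (log2 difference 0.44, adjusted p = 0.388), and so was a dim one of *Snap25* (log2 difference 1.27, adjusted p = 0.257). Neither passed. *Snap23* and *Stx4*, plasma membrane SNAREs of many cell types, pointed to GFP+/- cells by -0.38 and -0.31 on the log2 scale (adjusted p = 0.619 and 0.602), also without passing.

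Of the 30 Rab and Rab effector genes, 8 had GFP+ arrays wholly below the GFP+/- arrays and 9 wholly above, and none passed. Over all probe sets, 15.4% lay wholly below and 30.4% wholly above. *Rab14*, a Rab of the trans-Golgi network and endosomes, read 1067 and 538 on the GFP+ arrays, 1682 and 1629 on the GFP+/- arrays and 147 on the NT array (log2 difference -1.13, SE 0.33, adjusted p = 0.257). *Rab11a*, which marks recycling endosomes, read 2184 and 2383 on the GFP+ arrays, 3371 and 3488 on the GFP+/- arrays and 2039 on the NT array (log2 difference -0.59, SE 0.16, adjusted p = 0.224). *Rab1a*, needed for transport from the endoplasmic reticulum to the Golgi, read 57.7 and 72.1 on the GFP+ arrays, 109.9 and 169 on the GFP+/- arrays and 553 on the NT array (log2 difference -1.08, SE 0.33, adjusted p = 0.272). In each the GFP+ arrays lay below the GFP+/- arrays. *Rab8a*, a dim gene named after its values were seen because its difference was the lowest of the 71, read 22.3 and 61.9 on the GFP+ arrays, 73.8 and 90.1 on the GFP+/- arrays and 156 on the NT array (log2 difference -1.13, SE 0.56, adjusted p = 0.450). *Rab8a* takes part in traffic from the Golgi to the plasma membrane. *Rab33b*, a Golgi Rab, went the other way (log2 difference 0.51, SE 0.21, adjusted p = 0.369), and the mean of its 2 probe sets had the opposite sign (-0.67). By the ratio of averaged signals, the study's own measure, *Synj1*, *Rab3a* and *Stx3* were more than 2-fold higher (3 of 71, against 8.89% of probe sets). *Rab14*, *Rab1a* and *Syt2* were more than 2-fold lower (3 of 71, against 4.18%). Of the 4736 genes taken with 1 probe set each, 330 were more than 2-fold higher and 176 lower. *Rab3a*, *Stx3* and *Syt2* were dim. *Rab3a*, the Rab of synaptic vesicles, for example read 48.7 and 17.3 on the GFP+ arrays and 7.13 and 13.01 on the GFP+/- arrays (log2 difference 1.59, SE 0.68, adjusted p = 0.375), and the GFP+ arrays were over 2-fold apart.

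**Figure D2:**
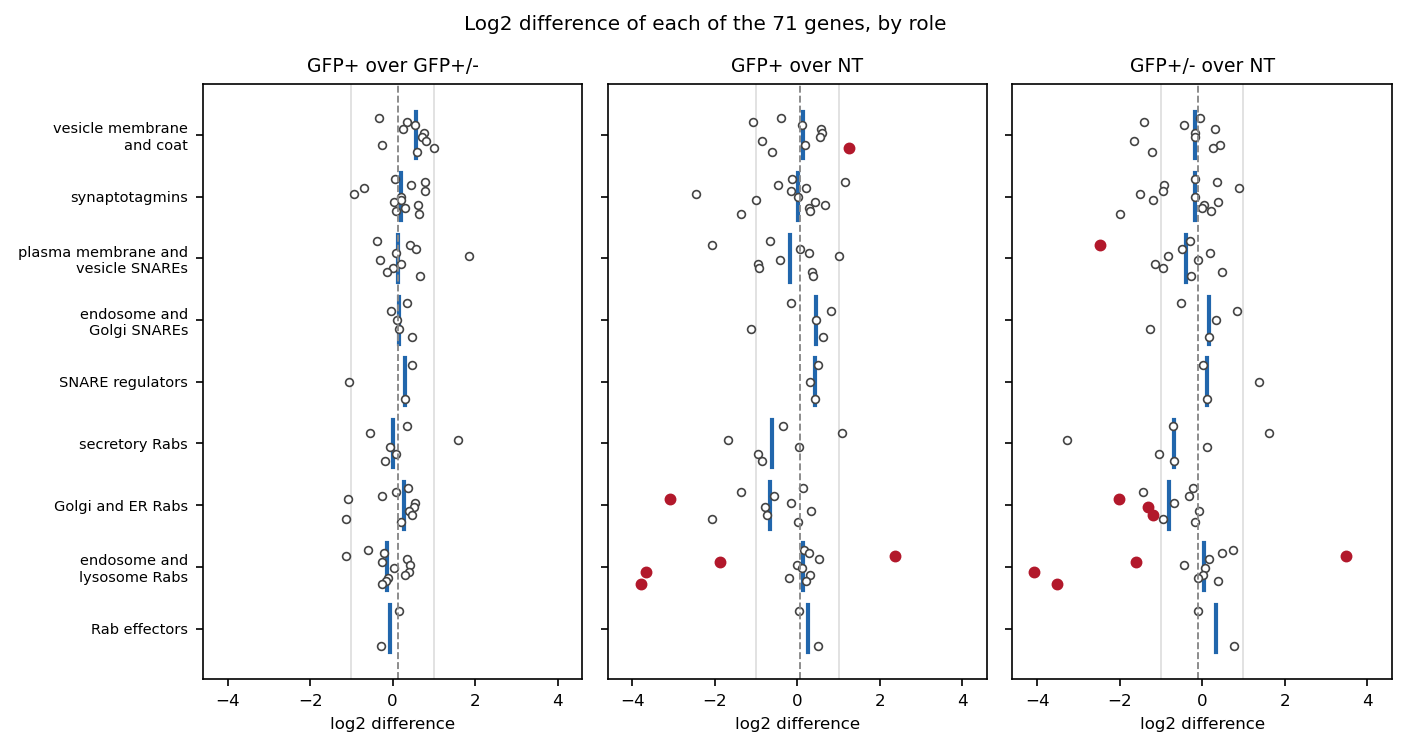
Log2 difference of each of the 71 genes in the 3 comparisons, grouped by role. Each circle is a gene, filled in red where limma's adjusted p was under 0.05, blue bars are role medians, the dashed line is the median of all 8740 probe sets and the pale lines mark 2-fold; no circle is filled for GFP+ over GFP+/- cells, 6 are for GFP+ over NT cells and 8 for GFP+/- over NT cells.

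NT cells, the reference for basal expression, were compared with both transfected populations. *Rab14* rose in both transfected populations, and *Rab1a*, *Rab28*, *Rab4a* and *Rab7a* fell in both. *Synj1* rose in GFP+ cells, and *Rab33b*, *Rab6a* and *Snap25* fell in GFP+/- cells. Both comparisons rest on the same single NT array, so they are not independent of each other, and transfection, the sorter, RNA quality and that one array cannot be told apart. In GFP+ over NT cells, 2 of 71 genes passed upwards (2.82%, against 4.38% of probe sets) and 4 downwards (5.63%, against 4.06%). In GFP+/- over NT cells, 1 passed upwards (1.41%, against 4.2%) and 7 downwards (9.86%, against 5.03%). The median log2 differences were 0.033 and -0.18, against 0.056 and -0.094 over all probe sets.

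*Rab14* had the largest difference of the 34 brighter genes in GFP+/- over NT cells, and *Rab1a* in GFP+ over NT cells. *Rab1a* is among those 34 only through its NT signal of 553, since its other arrays all lay below 175. The *Rab14* signals given above correspond to log2 differences of 2.37 for GFP+ cells (SE 0.41, adjusted p = 0.0287) and 3.49 for GFP+/- cells (SE 0.41, adjusted p = 0.0140). All 4 arrays of transfected cells lay above the NT array, by at least 3.66-fold. *Rab14* has 1 probe set on the array.

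*Rab1a* had its highest signal in NT cells by a wide margin, with log2 differences of -3.10 (SE 0.41, adjusted p = 0.0162) and -2.02 (SE 0.41, adjusted p = 0.0393). The brighter of the 2 left-out probe sets that are annotated to both *Rab1a* and *Rab1b* read 108 and 134 on the GFP+ arrays, 112 and 144 on the GFP+/- arrays and 116 on the NT array, with no such gap. *Rab28*, a farnesylated Rab, read 282 and 366 on the GFP+ arrays, 376 and 394 on the GFP+/- arrays and 1179.8 on the NT array (log2 difference -1.88, SE 0.25, adjusted p = 0.0168 for GFP+ cells; log2 difference -1.62, SE 0.25, adjusted p = 0.0231 for GFP+/- cells). A second *Rab28* probe set read 262 and 135 on the GFP+ arrays, 279 and 309 on the GFP+/- arrays and 259 on the NT array, where NT cells did not stand apart.

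*Rab6a* and *Rab33b*, the other Golgi Rabs that passed, fell in GFP+/- cells. *Rab6a*, which acts in traffic within and out of the Golgi, read 1764 and 2222 on the GFP+ arrays, 1289.9 and 1604 on the GFP+/- arrays and 3298 on the NT array (log2 difference -1.20, SE 0.25, adjusted p = 0.0421). *Rab33b* read 291 and 339.9 on the GFP+ arrays, 241 and 202 on the GFP+/- arrays and 547 on the NT array (log2 difference -1.31, SE 0.26, adjusted p = 0.0386). In both, GFP+ cells lay between GFP+/- and NT cells. By the probe set used, all 10 Rabs of Golgi and endoplasmic reticulum had a negative log2 difference in GFP+/- over NT cells, with a median of -0.81. After quantile normalization or with equal medians, 9 of 10 did. In GFP+ over NT cells 7 of 10 were negative, with a median of -0.66. Of all 8740 probe sets, 4797 were negative in GFP+/- over NT cells and 4124 in GFP+ over NT cells. The 12 Rabs of endosomes and lysosomes were split, with medians of 0.14 and 0.038. They include *Rab14* (2.37 and 3.49), which is also a Rab of the trans-Golgi network. Among the Golgi and endoplasmic reticulum Rabs, the second *Rab10* probe set was positive in GFP+/- over NT cells (0.26). Those of *Rab33b* and *Rab34* were negative (-0.37 and -0.71). Roles were assigned with earlier results of these data known.

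*Rab7a* (late endosomes and lysosomes) and *Rab4a* (fast recycling from early endosomes) were near the bottom of the signal range in all transfected cells. *Rab7a* read 8.32 and 10.9 on the GFP+ arrays, 9.77 and 13.4 on the GFP+/- arrays and 133 on the NT array (log2 differences -3.80 and -3.53, adjusted p = 0.0242 and 0.0278). *Rab4a* read 4.11 and 3.97 on the GFP+ arrays, 2.03 and 4.56 on the GFP+/- arrays and 51.8 on the NT array (log2 differences -3.68 and -4.09, adjusted p = 0.0341 and 0.0262). With 16 added to each signal these differences shrank to between -2.54 and -1.76 and still passed. *Rab3a* was also lower in GFP+/- than in NT cells, by -3.28, without passing (adjusted p = 0.0702).

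*Snap25* encodes SNAP-25, which supplies the plasma membrane side of the synaptic SNARE complex together with syntaxin. It read 65.5 and 141 on the GFP+ arrays, 73.2 and 70.96 on the GFP+/- arrays and 402 on the NT array. The NT array lay above the other 4, and the difference passed for GFP+/- cells (log2 difference -2.48, SE 0.53, adjusted p = 0.0443) but not for GFP+ cells (log2 difference -2.07, SE 0.53, adjusted p = 0.0738). *Snap25* has 3 more probe sets. One read 72.9 and 86.5 on the GFP+ arrays, 20.5 and 103 on the GFP+/- arrays and 207 on the NT array. Another was dim but passed in both comparisons, at 2.66 and 2.59 on the GFP+ arrays, 1.08 and 1.09 on the GFP+/- arrays and 29.7 on the NT array. The dimmest read 4.78 and 8.68 on the GFP+ arrays, 3.82 and 4.80 on the GFP+/- arrays and 6.29 on the NT array, with no gap to NT cells.

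Several other release genes had higher signals in NT than in GFP+/- cells without passing over all probe sets. *Vamp2* had log2 differences of -0.94 and -0.95 (adjusted p = 0.0700 and 0.0651). Its second probe set, also among the brightest 41%, read 321 and 392 on the GFP+ arrays, 276 and 337 on the GFP+/- arrays and 385 on the NT array (-0.12 and -0.34, adjusted p = 0.852 and 0.531), and there GFP+ and NT cells overlapped. *Rab3c*, a Rab of regulated secretion, read 278 and 272 on the GFP+ arrays, 258 and 257 on the GFP+/- arrays and 530.3 on the NT array (-0.95 and -1.04, adjusted p = 0.0682 and 0.0518). *Syp* was -1.21 in GFP+/- over NT cells (adjusted p = 0.0977) and -0.61 in GFP+ over NT cells (adjusted p = 0.377), and *Syt17* -0.95 in GFP+/- over NT cells (adjusted p = 0.0846). Fitted among the brightest probe sets alone, *Rab3c* and the first *Vamp2* probe set passed in both comparisons and *Syp* and *Syt17* in GFP+/- over NT cells. In that fit 3 of 34 genes passed upwards and 4 downwards in GFP+ over NT cells (against 16.7% and 14.9% of probe sets), and 3 and 8 in GFP+/- over NT cells (against 16.4% and 16%). *Stx5*, a Golgi SNARE, passed there in both comparisons in the other direction. It read 1092 and 879.8 on the GFP+ arrays, 1066 and 943 on the GFP+/- arrays and 558 on the NT array (log2 difference of GFP+ over NT cells 0.81, adjusted p = 0.0925 over all probe sets). *Syt5* also read higher than NT cells without passing, with 541 and 532 on the GFP+ arrays, 518 and 523 on the GFP+/- arrays and 400 on the NT array. Of the 41 genes that are neither Rabs nor Rab effectors, 25 were negative and 16 positive in GFP+/- over NT cells.

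The rise of *Synj1* in GFP+ over NT cells was at the threshold (log2 difference 1.26, SE 0.27, adjusted p = 0.0498). Its second probe set pointed the other way, with 159 and 136 on the GFP+ arrays, 107 and 36.6 on the GFP+/- arrays and 281 on the NT array (log2 difference -0.94, adjusted p = 0.472), and averaging both gave 0.16. None of the 6 calls in GFP+ over NT cells passed when any one of the 4 replicated arrays was left out, with adjusted p between 0.0546 and 0.148, in a fit with 1 residual degree of freedom in which 1 of the 8740 probe sets passed. In GFP+/- over NT cells 3 of 8 passed without either GFP+ array (*Rab14*, *Rab28* and *Snap25*) and none without either GFP+/- array. Without an intensity trend in the variance none passed in either comparison.

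**Figure D3:**
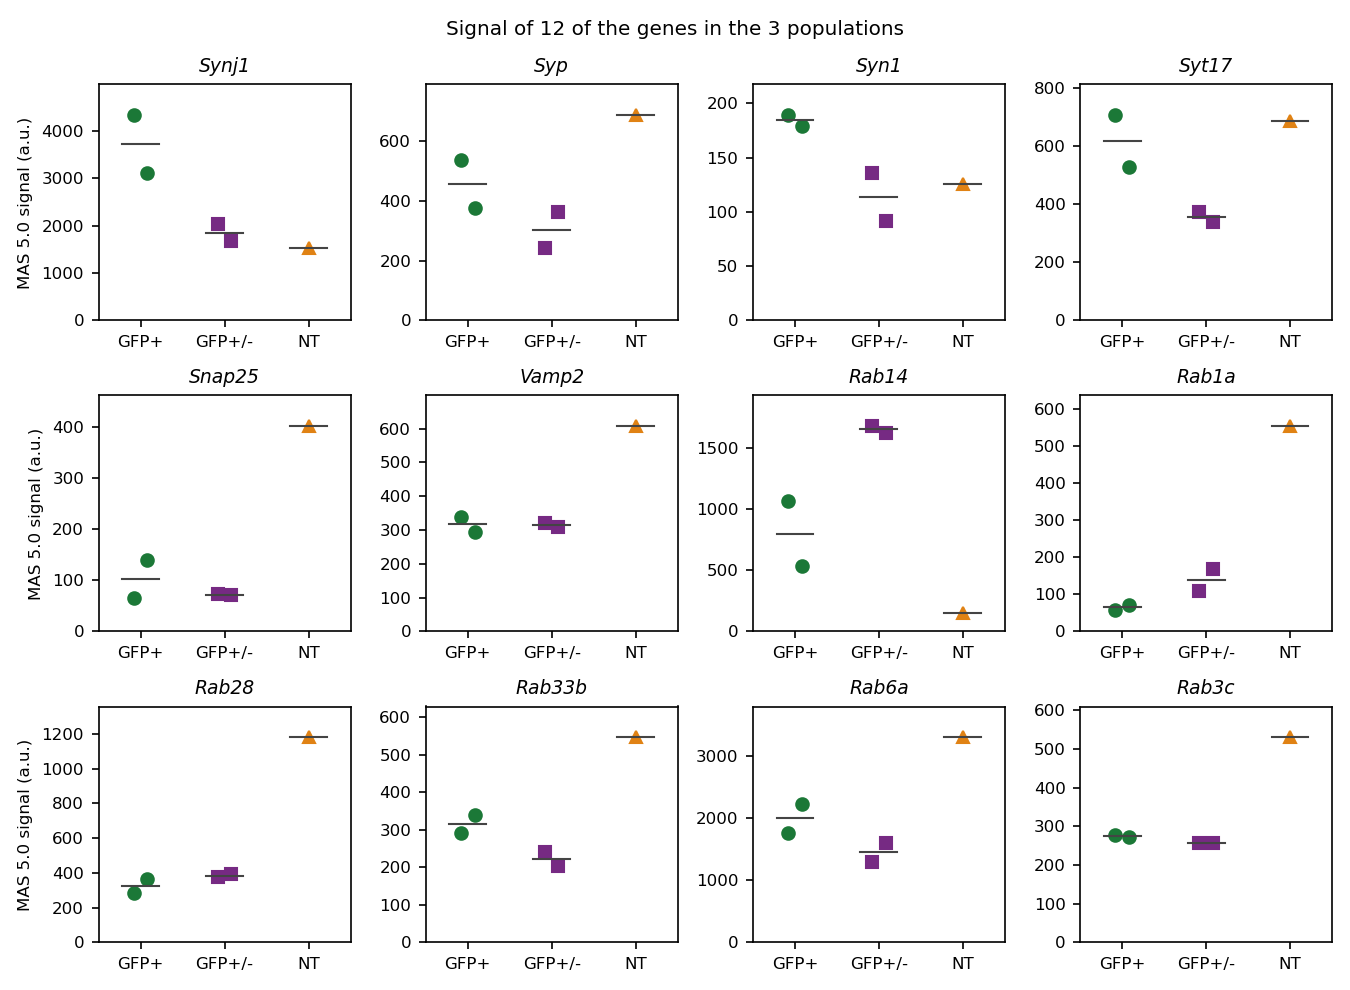
Signals of 12 of the genes in GFP+, GFP+/- and NT cells, in arbitrary units from 0. Each marker is an array and each bar the mean of a population (2, 2 and 1 arrays). *Synj1* is highest in GFP+ cells and *Rab14* in GFP+/- cells. *Syp*, *Snap25*, *Vamp2*, *Rab1a*, *Rab28*, *Rab33b*, *Rab6a* and *Rab3c* are highest in NT cells, each by the probe set used for the gene.

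By the ratio of averaged signals, 5 genes were more than 2-fold higher in GFP+ than in NT cells (7.04%, against 14.5% of probe sets) and 12 lower (16.9%, against 12.3%). For GFP+/- cells 3 were higher (4.23%, against 12.1%) and 18 lower (25.4%, against 15.2%). Of the 4736 genes taken with 1 probe set each, 642 were more than 2-fold higher and 525 lower in GFP+ than in NT cells. In GFP+/- cells, 554 were higher and 654 lower. The 18 comprised 9 Rabs, the SNAREs *Snap25*, *Stx7* and *Vamp1*, the synaptotagmins *Syt2*, *Syt4* and *Syt9*, and *Syn2*, *Snap91* and *Syp*. Of these 18, 11 were dim, and 7 were among the brightest 41% of probe sets. *Rab1a* and *Rab12* count among the 7 through their NT signals of 553 and 337. Their means were 64.9 and 143 in GFP+ cells, and 140 and 133 in GFP+/- cells. Probe sets were chosen by the mean over all 5 arrays, so a high NT signal could favour the one used. Other probe sets of *Rab28*, *Rab33b*, *Rab3c*, *Syn2*, *Syt4* and *Vamp1* were not past 2-fold lower, whereas some of *Snap25* were.

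Genes with several probe sets give a second reading of the same RNA. For 25 of the 71 genes there were 2 or more. All probe sets of a gene had the same sign for 18 genes in GFP+ over GFP+/- cells, for 11 in GFP+ over NT cells and for 10 in GFP+/- over NT cells. Probe sets with opposite signs and more than 1 log2 unit apart were found for 3 genes in the first comparison (*Rab33b*, *Rab5a* and *Syn2*) and for 8 in each of the others. The latter include *Synj1*, *Stx5* and *Rab11a* among the genes described above. The widest case was *Syn2* (synapsin II), whose most intense probe set read 44.9 and 58.8 on the GFP+ arrays, 16.2 and 53.8 on the GFP+/- arrays and 93.3 on the NT array and another 70.6 and 2.66 on the GFP+ arrays, 80.9 and 78.02 on the GFP+/- arrays and 3.52 on the NT array. For *Vamp5*, a VAMP known from muscle, the probe set used read 114 and 107 on the GFP+ arrays, 92.6 and 53.01 on the GFP+/- arrays and 84.96 on the NT array, and the other 113 and 127 on the GFP+ arrays, 54.2 and 59.4 on the GFP+/- arrays and 25.2 on the NT array, which passed in GFP+ over NT cells (log2 difference 2.25, adjusted p = 0.0395).

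**Figure D4:**
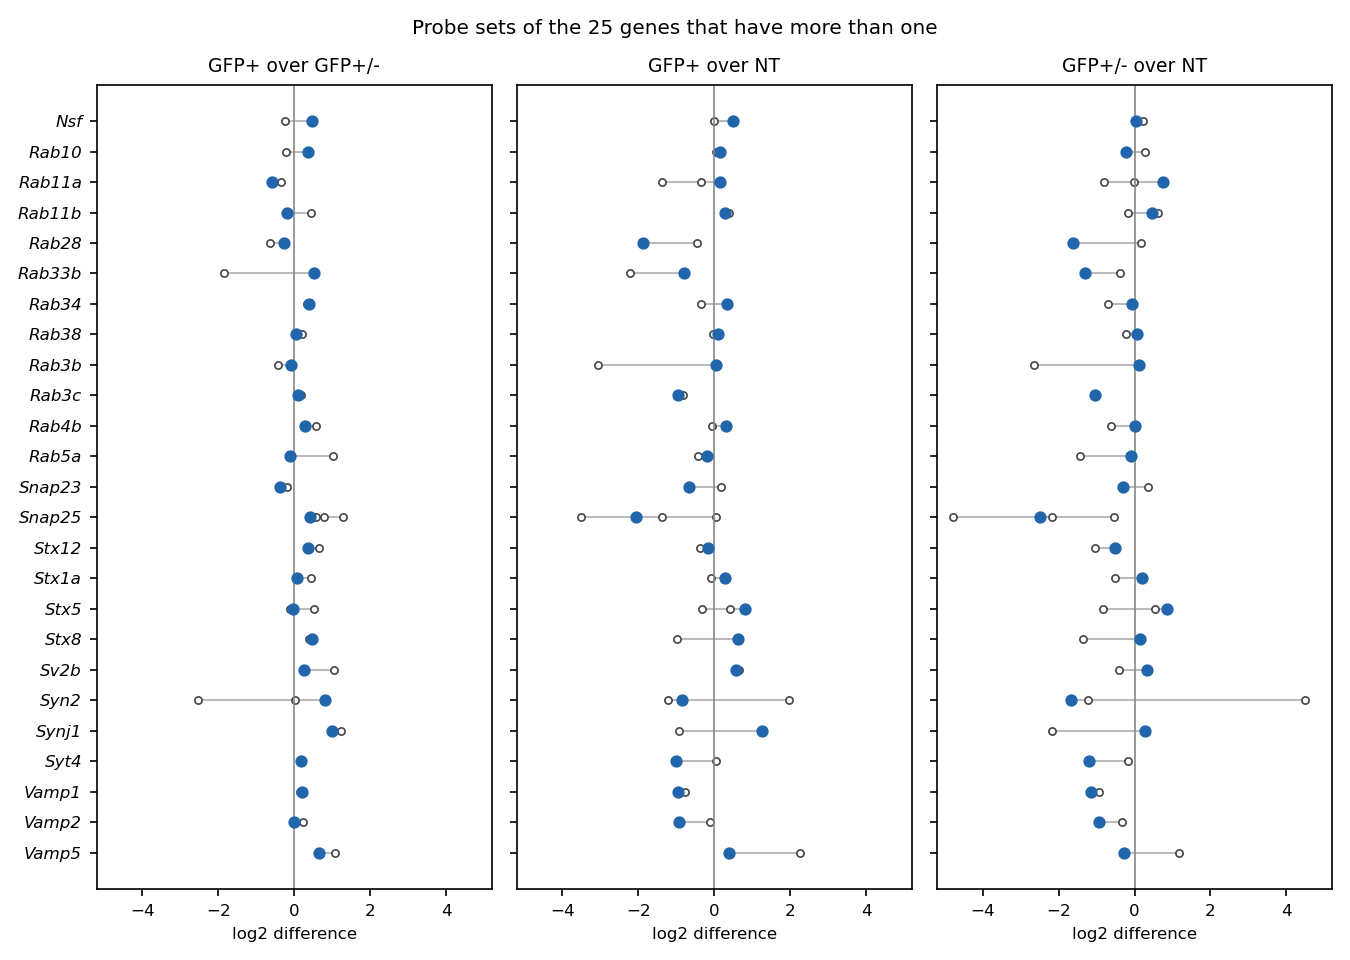
Log2 differences of all probe sets of the 25 genes that have more than one, in the 3 comparisons. Filled circles are the probe set used for the gene, open circles its other probe sets, and lines join those of a gene; signs are the same within 18 genes for GFP+ over GFP+/- cells and within 11 and 10 for the comparisons with NT cells.

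Start regions are shown for 5 of the genes described above, since the study is concerned with Krüppel-like factors and an activating transcription factor. They are *Synj1*, *Syn1* and *Syp* of the vesicle, and *Rab1a* and *Rab28*, which fell against NT cells by the probe set used. *Syn1* and *Syp* passed in no comparison over all probe sets. RefSeq windows (rat build GRCr8) were found for 59 of the 71 genes. Each is the 250 bases before the annotated start, 5′ to 3′ on the gene's strand, with capitals at GGGCGG (the GC box bound by Sp and Krüppel-like factors), CACCC (the CACCC box) and TGACGTCA (the cyclic AMP response element bound by CREB and ATF proteins) on either strand. The windows are *Synj1* (chr11:43755527-43755776, minus strand), *Syn1* (chrX:3725495-3725744, plus strand), *Syp* (chrX:17536450-17536699, minus strand), *Rab1a* (chr14:98623427-98623676, plus strand) and *Rab28* (chr14:73458178-73458427, plus strand).
Synj1: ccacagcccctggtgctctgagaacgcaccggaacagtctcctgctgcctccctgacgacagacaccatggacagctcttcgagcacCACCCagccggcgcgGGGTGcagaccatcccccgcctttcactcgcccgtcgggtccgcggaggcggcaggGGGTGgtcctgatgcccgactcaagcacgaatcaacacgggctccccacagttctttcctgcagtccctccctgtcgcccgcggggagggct
Syn1: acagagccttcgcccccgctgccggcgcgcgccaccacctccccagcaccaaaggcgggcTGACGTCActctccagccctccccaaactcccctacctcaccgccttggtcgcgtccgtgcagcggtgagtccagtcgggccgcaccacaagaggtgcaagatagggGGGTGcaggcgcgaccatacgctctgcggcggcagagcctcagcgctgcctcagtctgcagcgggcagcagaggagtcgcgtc
Syp: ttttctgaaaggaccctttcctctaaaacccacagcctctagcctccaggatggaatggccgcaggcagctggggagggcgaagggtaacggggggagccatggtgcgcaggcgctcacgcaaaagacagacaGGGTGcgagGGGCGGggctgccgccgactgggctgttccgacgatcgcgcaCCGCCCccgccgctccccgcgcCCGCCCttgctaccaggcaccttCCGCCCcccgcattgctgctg
Rab1a: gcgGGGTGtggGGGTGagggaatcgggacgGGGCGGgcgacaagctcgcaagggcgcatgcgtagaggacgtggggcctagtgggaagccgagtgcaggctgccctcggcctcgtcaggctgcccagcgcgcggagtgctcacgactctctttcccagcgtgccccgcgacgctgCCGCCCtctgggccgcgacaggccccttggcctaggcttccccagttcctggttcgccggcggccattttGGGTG
Rab28: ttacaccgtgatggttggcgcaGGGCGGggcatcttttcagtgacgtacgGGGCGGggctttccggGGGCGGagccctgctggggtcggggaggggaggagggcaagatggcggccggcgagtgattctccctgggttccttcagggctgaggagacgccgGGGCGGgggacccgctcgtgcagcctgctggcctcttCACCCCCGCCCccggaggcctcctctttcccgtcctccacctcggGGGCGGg
GGGCGG occurs 4 times in the *Syp* window, 2 times in *Rab1a*, 6 times in *Rab28* and 0 times in those of *Synj1* and *Syn1*. CACCC, which can share bases with the reverse of GGGCGG, occurs 3 times in *Synj1* and *Rab1a* and 1 time in each of the others. Among the 59 windows, 69.5% hold GGGCGG, against 52.5% of the 4191 windows of genes on the array and 30.5% of all 33469 RefSeq windows. CACCC is in 72.9%, 57.2% and 49.2%. TGACGTCA is in 2 of the 59 windows (*Syn1* and *Vamp1*), which is 3.39%, against 2.31% and 1.59%. These are matches of letters, and binding was not measured.

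Genes that work with this machinery were read from lists of related genes. Of 38 partners in release and recycling, none passed in GFP+ over GFP+/- cells (median log2 difference 0.15). Against NT cells 2 passed upwards and 2 downwards in GFP+ cells (against 4.38% and 4.06% of all probe sets), and 3 and 3 in GFP+/- cells (against 4.2% and 5.03%), so that these counts lay near the background. *Napa* (alpha-SNAP, the partner of NSF) read 2321 and 2419.7 on the GFP+ arrays, 2433 and 2065 on the GFP+/- arrays and 1085 on the NT array, and *Dnm2* (dynamin 2, which pinches off coated vesicles) 268 and 137 on the GFP+ arrays, 228 and 238 on the GFP+/- arrays and 36.4 on the NT array. Both rose in both transfected populations. *Cltc* (the clathrin heavy chain) read 1983 and 1783 on the GFP+ arrays, 1396 and 1899 on the GFP+/- arrays and 4358 on the NT array and *Cadps* (CAPS, a priming factor of dense-core granules) 1058 and 764 on the GFP+ arrays, 487 and 501 on the GFP+/- arrays and 2079 on the NT array. Both fell in both. *Unc13a* (Munc13-1, which primes synaptic vesicles) read 136 and 99.5 on the GFP+ arrays, 31.2 and 31.3 on the GFP+/- arrays and 26.1 on the NT array, highest in GFP+ cells without passing (log2 difference 1.90, SE 0.41, adjusted p = 0.171).

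Of 9 regulators of Rabs, none passed in GFP+ over GFP+/- cells, 3 fell in GFP+ over NT cells (against 4.06% of all probe sets) and 4 in GFP+/- over NT cells (against 5.03%). *Gdi2* (a GDP dissociation inhibitor, which extracts Rabs from membranes) read 16.2 and 37.2 on the GFP+ arrays, 15.96 and 10.4 on the GFP+/- arrays and 322 on the NT array. *Madd* (an exchange factor of Rab3) read 11.03 and 18.3 on the GFP+ arrays, 13.6 and 15.8 on the GFP+/- arrays and 147 on the NT array. *Arf1*, a Golgi GTPase, read 624 and 523 on the GFP+ arrays, 644 and 798 on the GFP+/- arrays and 2117 on the NT array. All 3 fell in both transfected populations, as *Rab1a* and *Rab7a* did. *Rabggtb*, a subunit of the enzyme that attaches lipids to Rabs, read 937 and 1319 on the GFP+ arrays, 854 and 820.4 on the GFP+/- arrays and 2439 on the NT array. It fell in GFP+/- cells, and GFP+ cells did not pass (adjusted p = 0.0566).

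Of 10 proteins of regulated secretory granules, *Scg2* (secretogranin II) read 396 and 243 on the GFP+ arrays, 184 and 259.6 on the GFP+/- arrays and 1601 on the NT array and fell in both transfected populations, and *Chgb* (chromogranin B) read 1783 and 1101 on the GFP+ arrays, 765 and 907 on the GFP+/- arrays and 2345 on the NT array and fell in GFP+/- cells. Of the 10, 1 fell in GFP+ over NT cells (against 4.06% of all probe sets) and 2 in GFP+/- over NT cells (against 5.03%). Of 13 transmitter and proton transporters of vesicles, 1 passed, *Atp6v1d*, a subunit of the proton pump. It fell in GFP+/- over NT cells (against 5.03% of all probe sets). Its signals were 2419 and 2033 on the GFP+ arrays, 1835 and 1774 on the GFP+/- arrays and 3929.9 on the NT array. *Slc32a1*, which loads GABA and glycine into vesicles, read 1353 and 1251 on the GFP+ arrays, 1435 and 1622 on the GFP+/- arrays and 1456 on the NT array and passed in no comparison.

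The marker genes of neurons outside the group had a median log2 difference of 0.48 in GFP+ over GFP+/- cells, -0.53 in GFP+ over NT cells and -0.44 in GFP+/- over NT cells. Those of fibroblasts and matrix had -0.90, -0.24 and 0.74. The medians of the vesicle membrane and coat genes in the same comparisons were 0.57, 0.15 and -0.17. Whether the share of neurons in each population contributes to the differences in vesicle genes was not tested.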

How the data were processed

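RNA of GFP+ (2 arrays), GFP+/- (2 arrays) and NT cells (1 array) had been hybridized to the rat U34A array. The authors deposited MAS 5.0 signals, which are linear intensities scaled by one factor per array. The methods state a mean of 125, whereas the deposited signals have a mean of 501 after 2% was trimmed from each end. Columns were matched to samples by the labels. Arrays have no read depth, so their number limits the precision.

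After removal of 59 controls from 8799 probe sets, 8740 remained. Gene names came from the platform annotation, which gave 7006 probe sets 1 symbol, 308 several and 1426 none, and all 71 symbols were found in RefSeq (GRCr8). Signals under 1 were set to 1 before log2. Populations were compared with limma 3.58.1 in R 4.3.3, in one fit of all 5 arrays with a mean per population and an intensity trend. P-values were two-sided, and Benjamini-Hochberg adjustment ran across all 8740 probe sets at a threshold of 0.05. NT cells, with 1 array, were taken to have the spread of the other populations. The ratio of averaged signals was used at 2-fold. Shares of all probe sets count each of the 8740, whereas the 71 genes count 1 probe set each. The fit was tested on simulated data. Plots were made in Python 3.11.15 with matplotlib 3.10.9.

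Genes named are the core genes of the machinery, those past the threshold, up to 6 higher and 6 lower per comparison among the brightest 41% with separated arrays, the ends of each role's signal range, genes whose probe sets disagree, and some of each list. Not all that the rule takes are described. The genes, roles and lists were chosen with earlier results of these data known. Promoter windows came from RefSeq. For the replicate numbers of the labels, the deviations of GFP+ and GFP+/- arrays of one number had a correlation of 0.063 (0.197 if taken on the brightest 41%), with 2 pairs, and nothing states a shared batch, so no pairing was assumed. Alternatives were quantile normalization, scaling to equal medians, an offset of 16 on every signal, a fit of the brightest 41% alone, no intensity trend, a fit without the NT array, a replicate block, averaging over the probe sets of a gene, and each replicated array left out.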

Additional observations from a re-analysis of the deposited data

How the results depend on the processing

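In GFP+ over GFP+/- cells, 0 of 71 genes passed in the main fit and 1 when only the brightest 41% of probe sets were fitted. The counts past 2-fold, 3 higher and 3 lower, became 1 and 1 with 16 added to each signal; quantile normalization gave 5 lower and the brightest probe sets alone 1 higher. With one array left out at a time they ranged from 3 to 7 higher and from 2 to 5 lower. The median log2 difference of 0.19 became 0.045 after quantile normalization and 0.037 with equal medians, where the median of all probe sets moved from 0.13 to -0.0054 and -0.029. In GFP+ over NT cells, the 6 genes that passed became 0 without the intensity trend and 0 with any replicated array left out. The 5 genes past 2-fold upwards became 2 with 16 added and 2 among the brightest, and ranged from 3 to 6 with an array left out, and the 12 downwards became 3 among the brightest. In GFP+/- over NT cells, the 8 that passed became 0 without the trend and 5 when all probe sets of a gene were averaged, and ranged from 0 to 3 with an array left out. The 3 past 2-fold upwards became 1 with 16 added and 1 among the brightest, and the 18 downwards became 7 among the brightest. The counts among the brightest come from 34 genes. *Rab33b* in GFP+ over GFP+/- cells reversed to -0.67 with the mean of its probe sets. With a replicate block, in which the numbers stand for no known pairing, 0, 6 and 8 of the 71 genes passed in the 3 comparisons, as without it. Of all 8740 probe sets, 478 then passed upwards and 426 downwards in GFP+ over NT cells, instead of 383 and 355. In GFP+/- over NT cells 455 and 522 passed, instead of 367 and 440. The causes of these changes were not tested, and dim signals limit what could be seen in 37 of the 71 genes.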

Other observations

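Markers of other cells were read beside the 71 genes. The summed signal of 9 endothelial and mural genes was 2279 to 4045 on the GFP+ arrays, 9264 to 11506 on the GFP+/- arrays and 1881 on the NT array. Most of this sum came from *Acta2* (1053 and 2375, 6561 and 9059, and 441) and *Tagln* (629 and 942, 2136 and 1835, and 792), while the other 7 genes had positive log2 differences in GFP+ over GFP+/- cells and the list's median was 0.11. The sum of 6 erythroid genes was 4456 to 5223, 7372 to 10134 and 1072, most of it from *Hbb* (3072 and 3385, 8361 and 5760, and 254), and their median log2 difference in GFP+ over GFP+/- cells was -0.16. In each of these lists 2 genes rose in GFP+/- over NT cells (against 4.2% of all probe sets). In GFP+ over NT cells 2 erythroid genes also rose (against 4.38%). The sums of 13 astrocyte genes (42340 to 48857) and 8 oligodendrocyte genes (1690 to 1788) varied little over the 5 arrays. Single astrocyte genes moved in both directions, with 7 positive and 6 negative in GFP+ over NT cells. *Slc1a3* read 3478 and 5392, 3314 and 2683, and 2213, and *Fabp7* 3870 and 5714, 3813 and 6345, and 9200. *Aldoc* had a log2 difference of -1.12 in GFP+ over NT cells, and *Ntrk2* -1.47 in GFP+/- over NT cells. *Gfap* had no probe set under that name here. Those of 11 microglial genes were 1113 to 1271, 651 to 804 and 1885.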
